A study of Homo sapiens with 6 samples.

Results

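Cytokinesis is the step that divides a mitotic cell into its daughters, and 10 genes whose proteins build the central spindle, the contractile ring, the midbody or the spindle that precedes them were followed in HepG2 cells given polydatin (PD). The genes were ECT2, ANLN, PRC1, RACGAP1, CIT, CEP55, TPX2, ASPM, HMMR and NUSAP1. They were chosen by name, without kinesins, and all 10 were found among the 28563 genes analysed. HepG2 is an established human liver cancer cell line, and PD is a plant glucoside of resveratrol. There were 3 dishes per group, and dishes received either 336 µM PD in DMSO, as the labels give the dose, or DMSO alone for 24 h, with no other agent or genetic change in either group. The methods of the study state a somewhat lower dose of PD. All dishes came from 1 cell line, so the spread between libraries is that between dishes and not between donors.

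In anaphase, PRC1 bundles antiparallel microtubules between the separating chromosomes, and centralspindlin, made of RACGAP1 and the motor KIF23, gathers there and recruits ECT2. ECT2 loads RhoA with GTP at the cortex, where anillin (ANLN) and citron kinase (CIT) hold the actomyosin ring, and CEP55 later brings the abscission machinery to the midbody. TPX2, ASPM, HMMR and NUSAP1 act earlier, on microtubules of the spindle and its poles. Transcripts of many of these genes are known to peak in G2 and mitosis.

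Library totals, worked back from the deposited FPKM (fragments scaled to gene length and library total), were 16763318 to 17274927 fragments for DMSO, and for PD they were 16308476 to 18071632. Each of the 10 genes had 501 to 5894 fragments per DMSO library and 208 to 3664 per PD library, with the fewest for HMMR. No pair of libraries agreed within sampling noise. Of 20 genes typical of hepatocytes, 9 were analysed, and ALB, AFP, APOB and TTR were not among these 9. APOA1, FGA, FGG, HNF4A, SERPINA1 and TF reached at most 0.172 FPKM in any library. These defining markers were thus near 0, whereas CPS1 had 225 ± 3.46 FPKM (SD, n = 3) in DMSO, and the name HepG2 is used as the labels give it. Among markers of other cells, the summed level of 4 endothelial genes was at most 0.0801 FPKM, and that of 4 fibroblast genes 24.3 to 25.9 FPKM in DMSO and 33.2 to 34.7 FPKM in PD, most of it VIM. The 4 epithelial genes analysed summed to 95.4 to 101 FPKM in DMSO and 114 to 120 FPKM in PD, nearly all of it KRT8 and KRT18. The other epithelial genes were low, with EPCAM at means of 1.17 FPKM in DMSO and 1.03 FPKM in PD. CDH1 reached at most 0.145 FPKM in any library.

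PD treatment lowered 9 of the 10 genes, and left CEP55 without a detectable change. The falls were graded, from ASPM, which kept 34.3% of its DMSO level, to CIT, which kept 81.4%. Differences were tested with limma on log2(FPKM + 1) over 14400 genes that averaged 0.5 FPKM or more, with Benjamini-Hochberg adjustment over all of them. The threshold was an adjusted p of 0.05, and 26.2% of all tested genes were lower in PD by it and 31.9% were higher. Upper quartile scaling turned this balance over all genes, from 3780 lower and 4588 higher to 4675 lower and 3798 higher. ASPM, ECT2 and ANLN also passed the 2-fold threshold of the study, applied here to FPKM + 1, whereas the study applied it with DESeq2. Of tested genes, 1.57% passed it downward and 2.04% upward, 520 genes in all. These 520 became 1734 with voom and 1248 if 0.1 was added in place of 1. The median log2 fold change of the 10 genes was -0.68, beside 0.01 over all tested genes. In the 9 lower genes, every PD library lay below every DMSO library, as it did in 29.9% of all tested genes, and the reverse held in 35.6%. Because whole dishes were sequenced, fewer cells in mitosis and less of these RNAs in each cell cannot be told apart.

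**Figure D1:**
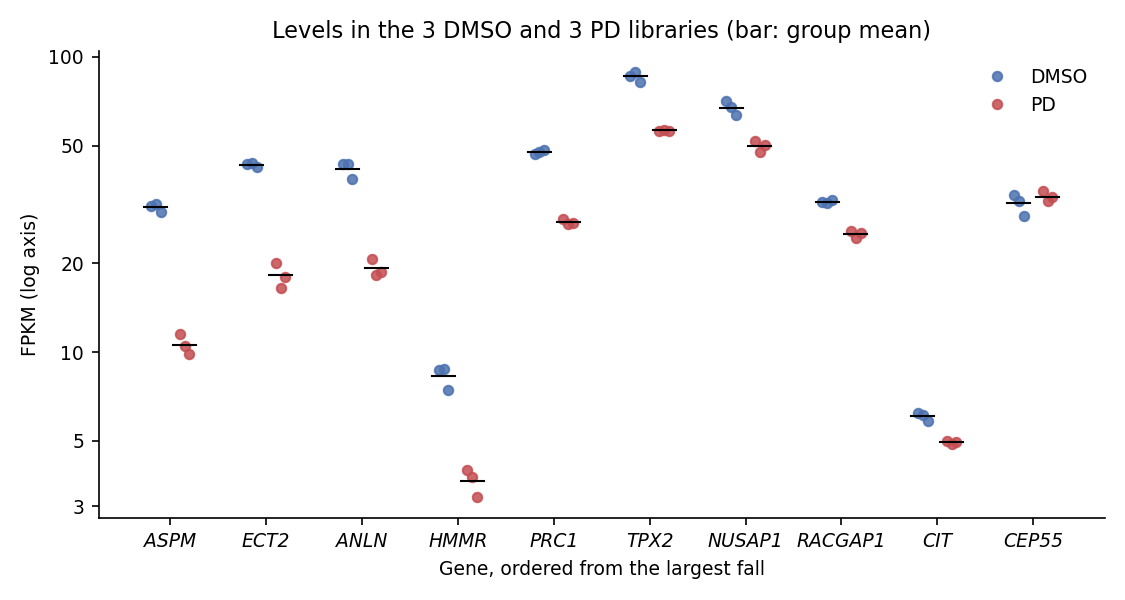
FPKM of each gene in the 3 DMSO (blue) and 3 PD (red) libraries on a log axis, with black bars at the group means. The PD points lie below the DMSO points in 9 genes, and in CEP55 the groups overlap at 28.9 to 35.0 FPKM.

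Among transcripts of the central spindle proteins, that of ECT2 fell most. ECT2 lies on chromosome 3 of GRCh38, from 172750682 to 172821474. Its levels were 43.2, 43.6 and 42.3 FPKM in DMSO replicates 1, 2 and 3, and 20.1, 16.5 and 17.9 FPKM in PD replicates 1, 2 and 3. Every PD dish thus lay far below every DMSO dish. This gave a log2 fold change of -1.21 ± 0.07 (SE, limma, adjusted p = 9.6e-06), and only 0.674% of tested genes fell further. RACGAP1, which encodes the GTPase-activating subunit of centralspindlin and lies on chromosome 12 (49976923 to 50033136), fell far less than ECT2. It had 32.3, 31.9 and 32.7 FPKM in DMSO and 25.6, 24.4 and 25.3 FPKM in PD. The groups were narrow and apart, with a log2 fold change of -0.35 ± 0.03 (SE, limma, adjusted p = 0.00011). PRC1, on chromosome 15 (90966040 to 90995629), had 47.0, 47.5 and 48.4 FPKM in DMSO and 28.3, 27.1 and 27.4 FPKM in PD. The transcript of this microtubule bundler kept 57.9% of its DMSO level, with a log2 fold change of -0.77 ± 0.03 (SE, limma, adjusted p = 3.9e-06).

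Transcripts of both contractile ring genes fell, to very different extents. ANLN, the scaffold that links RhoA, actin, myosin and septins, lies on chromosome 7 from 36389821 to 36453791. It had 43.4, 43.4 and 38.6 FPKM in DMSO and 20.6, 18.3 and 18.7 FPKM in PD. The lowest DMSO dish was replicate 3, still well above the PD dishes, with a log2 fold change of -1.08 ± 0.06 (SE, limma, adjusted p = 1.3e-05). CIT, the kinase that organises the late ring and midbody, lies on chromosome 12 from 119685791 to 119877320. Its levels were 6.24, 6.13 and 5.85 FPKM in DMSO and 4.99, 4.89 and 4.96 FPKM in PD. This was the smallest of the 9 falls on the log2 scale, at -0.25 ± 0.05 (SE, limma, adjusted p = 0.0027), and 24.6% of tested genes fell further.

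CEP55, the midbody protein on chromosome 10 (93496612 to 93529092), was the exception. It had 34.1, 32.5 and 28.9 FPKM in DMSO and 35.0, 32.5 and 33.4 FPKM in PD, so the groups overlapped. The log2 fold change was 0.08 with a 95% interval from -0.07 to 0.23 (limma, adjusted p = 0.33), and upper quartile scaling turned it to -0.005. The interval lies wholly above that of CIT, the gene nearest to it, which ran from -0.36 to -0.14.

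Transcripts of the spindle proteins covered most of the range of falls. ASPM, a protein of microtubule minus ends at the spindle poles, lies on chromosome 1 from 197084121 to 197146694. Its levels were 31.2, 31.6 and 29.8 FPKM in DMSO, and 11.5, 10.5 and 9.86 FPKM in PD. It was the gene with the largest fall of the 10, with a log2 fold change of -1.46 ± 0.06 (SE, limma, adjusted p = 3.2e-06), and only 0.306% of tested genes fell further. HMMR, which binds microtubules and helps position the spindle, lies on chromosome 5 from 163460203 to 163491941. It had 8.69, 8.76 and 7.44 FPKM in DMSO and 3.98, 3.78 and 3.24 FPKM in PD. At a log2 fold change of -0.99 ± 0.08 (SE, limma, adjusted p = 6e-05), it missed the 2-fold threshold on the FPKM + 1 scale, and with a pseudocount of 0.1 it passed it at -1.16.

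TPX2, which activates Aurora A and nucleates spindle microtubules, was the most abundant of the 10 in both groups and lies on chromosome 20 from 31739271 to 31801805. It had 86.1, 88.8 and 82.4 FPKM in DMSO and 56.2, 56.6 and 56.2 FPKM in PD. The 3 PD dishes were almost equal, at a log2 fold change of -0.60 ± 0.03 (SE, limma, adjusted p = 1.2e-05). NUSAP1, a bundler of spindle microtubules near chromosomes, lies on chromosome 15 from 41320794 to 41381050. Its levels were 71.1, 67.4 and 63.4 FPKM in DMSO and 51.8, 47.7 and 50.3 FPKM in PD, a log2 fold change of -0.42 ± 0.05 (SE, limma, adjusted p = 0.00032). For single genes, the exact two-sided permutation test over libraries gave p = 0.1 for each of the 9 lower genes, the smallest value that 3 against 3 libraries allow, and p = 0.5 for CEP55. Exons of ANLN, HMMR, RACGAP1, CIT, NUSAP1 and PRC1 overlap those of other genes, over most of the exon bases in NUSAP1 and PRC1, where readthrough genes not analysed here share 2938 of 3608 and 3181 of 5523 bases, so fragments of these genes are less certain.

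**Figure D2:**
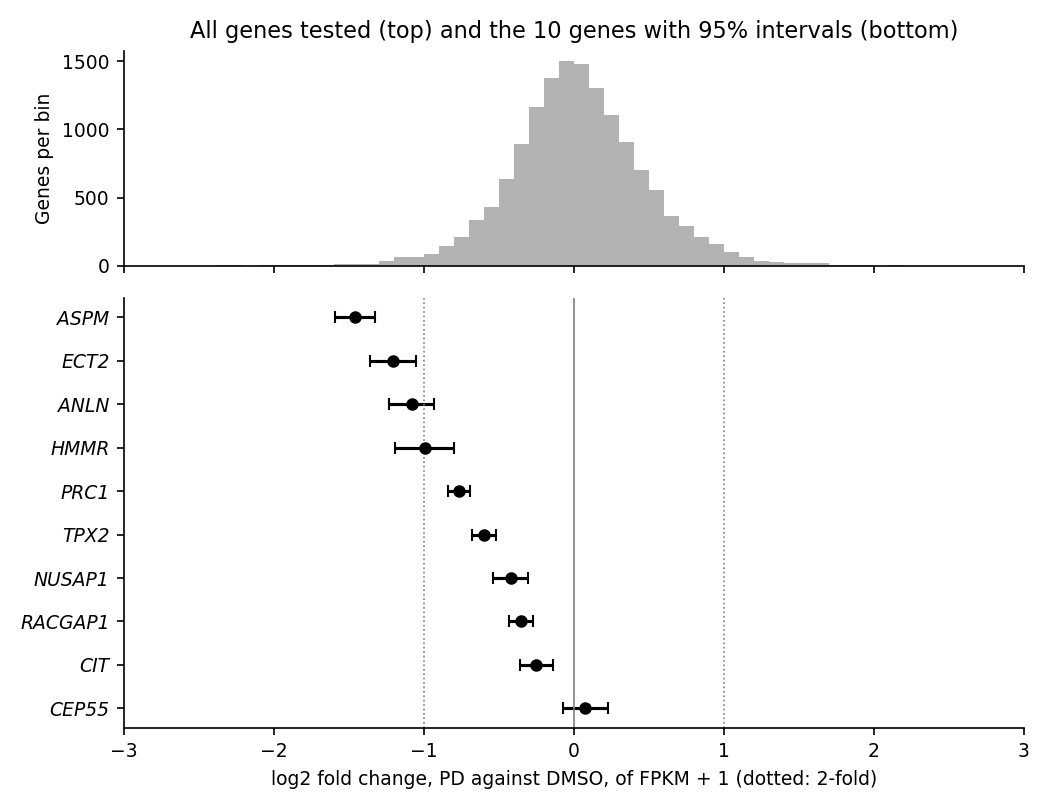
The top panel counts all 14400 tested genes per 0.1 of log2 fold change of FPKM + 1, PD against DMSO, and the bottom panel gives each of the 10 genes as a point with its 95% interval, with dotted lines at 2-fold. ASPM, at -1.46, lies in the far left tail, and the interval of CEP55 alone spans 0.

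The order of levels changed with treatment. FPKM are levels per length, so they can be compared between genes, with the gene lengths the authors used. In DMSO the order was TPX2, NUSAP1, PRC1, ECT2, ANLN, RACGAP1, CEP55, ASPM, HMMR and CIT, and the libraries of ECT2 and ANLN overlapped, as did those of RACGAP1 and CEP55 and of CEP55 and ASPM. All other neighbours were apart in that order. In PD, CEP55 ranked 3 of the 10 with a mean of 33.6 FPKM, ECT2 moved from rank 4 to rank 7, and HMMR came last below CIT. In that order ECT2 and ANLN were the neighbours whose libraries overlapped, at means of 18.2 and 19.2 FPKM.
Single libraries were low or high for many of the genes at once. DMSO replicate 3 had the lowest level of its group in 8 of the 10 genes, whereas it was lowest in 35.5% of all tested genes. PD replicate 1 had the highest level of its group in 9 of the 10, against 36.5% of all tested genes.

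The promoters of these genes are shown because 8 of the 10 have a sequence window here and each of the 8 holds the same short motif. The motif TTTGAA is the core of the cell cycle genes homology region (CHR), an element through which MuvB complexes are known to hold back and later drive genes of G2 and mitosis. It often works with CCAAT boxes, the sites of the factor NF-Y. Windows ran from 250 bases before to 50 bases after each RefSeq start site on GRCh38.p14, and both strands were searched. In no window of these genes did a TTTGAA match share bases with a CCAAT match, while 2 CCAAT matches of HMMR on opposite strands overlap. Both motifs were picked after the falls had been seen. TTTGAA was found in 15.2% of all 35116 windows and CCAAT in 34.6%. The 150 bases before the start site follow for the genes with the 5 largest falls and for CEP55, 5′ to 3′, with TTTGAA and CCAAT or their reverse complements in capitals.
ASPM, chr1:197146670-197146819, minus strand: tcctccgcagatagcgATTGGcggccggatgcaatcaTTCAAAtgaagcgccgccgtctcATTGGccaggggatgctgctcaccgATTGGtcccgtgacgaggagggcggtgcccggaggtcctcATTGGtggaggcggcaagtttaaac
ECT2, chr3:172750576-172750725, plus strand: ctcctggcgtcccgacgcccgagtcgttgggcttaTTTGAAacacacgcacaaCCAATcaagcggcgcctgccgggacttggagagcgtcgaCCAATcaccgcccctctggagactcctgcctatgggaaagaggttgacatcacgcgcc
ANLN, chr7:36389712-36389861, plus strand: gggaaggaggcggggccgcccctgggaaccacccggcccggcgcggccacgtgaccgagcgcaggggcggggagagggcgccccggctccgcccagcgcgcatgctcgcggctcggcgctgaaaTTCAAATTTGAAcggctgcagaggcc
HMMR, chr5:163460482-163460631, plus strand: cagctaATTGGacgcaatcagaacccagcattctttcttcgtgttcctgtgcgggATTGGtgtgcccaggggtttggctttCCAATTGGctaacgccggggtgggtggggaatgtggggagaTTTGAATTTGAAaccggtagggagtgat
PRC1, chr15:90994536-90994685, minus strand: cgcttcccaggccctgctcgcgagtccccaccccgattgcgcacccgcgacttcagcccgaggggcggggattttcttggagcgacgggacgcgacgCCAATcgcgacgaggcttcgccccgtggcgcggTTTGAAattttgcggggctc
CEP55, chr10:93496462-93496611, plus strand: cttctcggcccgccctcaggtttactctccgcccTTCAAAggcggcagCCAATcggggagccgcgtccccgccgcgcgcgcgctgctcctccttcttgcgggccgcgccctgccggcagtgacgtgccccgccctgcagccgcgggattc
In ANLN the motif and its reverse complement adjoin each other, beginning 26 and 20 bases before the start. HMMR has a pair of copies in tandem, 28 and 22 bases before the start, and PRC1 a single copy 20 bases before it. ASPM holds 1 copy, 113 bases before the start, among 4 CCAAT boxes. ECT2 has TTTGAA in both of its RefSeq windows, of which the first is shown. These windows overlap, and the match 35 bases after the first start is the same site as that 242 bases before the second. CEP55, whose level did not change detectably, has 2 copies, 116 and 3 bases before the start, of which the latter crosses the start and is not in capitals, so the motif did not separate it from the others. CIT and NUSAP1 hold TTTGAA 11 and 14 bases after the start, and CIT a further copy 208 bases before it. CCAAT was found in 7 of the 8 genes, ANLN being the one without it.

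**Figure D3:**
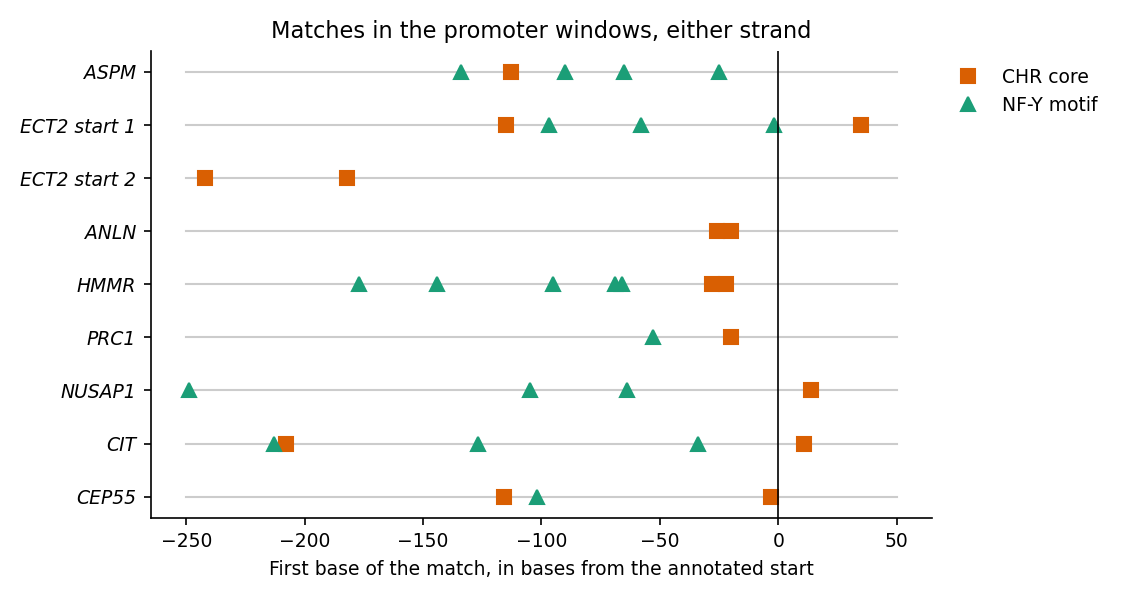
First base of each match to TTTGAA (CHR core, squares) and to CCAAT (NF-Y motif, triangles) on either strand, in bases from the annotated start, with 1 line per RefSeq window. The windows of ECT2 overlap, so the same TTTGAA site appears on both of its lines. Every gene has a square, ANLN has no triangle, and the squares of ANLN, HMMR and PRC1 lie within 28 bases before the start.

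The share with the motif differed between lists, whose genes were few. TTTGAA was in a window of 7 of 9 midzone motors and kinases, 7 of 13 spindle assembly genes and 7 of 10 genes of a G2/M list, all groups described in the following paragraphs. It was in 2 of 16 RhoA and contractile ring genes, 1 of 10 septins, 1 of 15 abscission genes, 1 of 8 augmin genes and 2 of 12 genes of an S phase list, while the hepatocyte list, which is outside the cell cycle, held it in 5 of 13. Of all tested genes with a window, 13.3% held it. The share was 26.7% (23 of 86) of genes at least 2-fold lower in PD and 11.4% (24 of 211) of those at least 2-fold higher. Only 86 of the 217 lower genes with a symbol had a window, against 211 of 292 higher genes. The lower set includes ASPM, ECT2 and ANLN, and the motif was picked after the falls had been seen, so these shares do not test it. A match shows the letters and not that a factor binds there.

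The partners of the 10 proteins were followed in 6 lists of 82 genes, of which 76 were tested. By the same threshold (limma), 28 were lower and 20 higher in PD, beside 26.2% lower and 31.9% higher of all tested genes. Upper quartile scaling gave 38 lower and 14 higher. The median log2 fold change of the 76 genes was -0.06. The falls lay mostly in the lists of the midzone and of spindle assembly.
Of 10 midzone motors and kinases, 8 fell and 1 rose (median log2 fold change -0.59). PLK1, the kinase that primes RACGAP1 to bind ECT2, had 26.9 to 27.6 FPKM in DMSO and 8.64 to 9.29 FPKM in PD, and its log2 fold change was -1.498 (limma, adjusted p = 1.4e-06). KIF14, a motor that binds PRC1 and CIT, fell by 1.00 on the log2 scale. The study picked PLK1, KIF14 and AURKA on these same libraries and on patient tumour data, so their falls here are not independent evidence. It also reported lower levels of these genes in PD by RT-qPCR, and of AURKA and PLK1 by Western blot. The 4 genes of the chromosomal passenger complex went apart, since INCENP (-0.79), CDCA8 (-0.57) and BIRC5 (-0.39) fell and AURKB, its kinase, rose. AURKB had 32.7, 30.9 and 33.5 FPKM in DMSO and 39.6, 40.0 and 42.6 FPKM in PD, a log2 fold change of 0.32 ± 0.05 (SE, limma, adjusted p = 0.00064), and the rise held under both scalings tried.

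Of 15 spindle assembly genes, 11 fell (median log2 fold change -0.34). AURKA, the kinase that TPX2 activates, fell from 51.8 ± 3.19 to 19.7 ± 0.692 FPKM (SD, n = 3 each). DLGAP5, which stabilises kinetochore fibres, fell by 0.84 on the log2 scale (limma, adjusted p = 3.8e-05). Of the 8 augmin genes, whose complex seeds microtubules on existing ones, 4 were higher, with HAUS4 (0.76) and HAUS5 (0.41) rising most. By limma 0 were lower, 1 was lower at an unadjusted p under 0.05, and voom and upper quartile scaling each gave 1 lower and 4 higher, as did leaving out PD replicate 1.

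In the RhoA and contractile ring list, 5 of 16 tested genes were lower and 4 higher (median log2 fold change -0.03). Both counts lay near the shares of all tested genes, 26.2% lower and 31.9% higher. Upper quartile scaling gave 8 lower and 1 higher. The higher genes numbered 2 without DMSO replicate 1, 2 or 3 or without PD replicate 2 or 3, and 3 without PD replicate 1. ROCK2, a kinase that RhoA activates, fell from 23.2 ± 1.35 to 12.8 ± 0.984 FPKM (SD, n = 3 each), and ARHGAP11A, a RhoA regulator of mitosis with a near-identical paralog, fell by 0.50 on the log2 scale. The myosin heavy chains MYH14 (0.73) and MYH10 (0.22) rose at low levels, to 1.495 and 1.02 FPKM in PD, and MYH10 passed narrowly (limma, adjusted p = 0.049).
Septins, which ANLN recruits to the ring, were lower in 2 and higher in 5 of 9 tested genes. The lower count was near the 26.2% of all tested genes, and the higher count stood beside 31.9%. Without DMSO replicate 1, PD replicate 1 or PD replicate 2, 1 was lower. SEPTIN3 rose most, from 1.13 ± 0.135 to 4.21 ± 0.374 FPKM (SD, n = 3 each), followed by SEPTIN5 (0.48), while the abundant SEPTIN2 (-0.29) and SEPTIN9 (-0.12) fell. Of 18 abscission genes tested, 2 were lower, beside 26.2% of all tested genes, and 5 were higher, near the 31.9% of all. Upper quartile scaling, which also turned the balance of all genes, gave 5 lower and 2 higher. CHMP7 (0.71) and ZFYVE19 (0.61) rose most, and CHMP1B (-0.28) and MITD1 (-0.18) fell most. Exons of PLK1, KIF23, KIF4A, HAUS4, RHOA, ARHGAP11A, MYH10, MYH14, SEPTIN2, SEPTIN3, SEPTIN5, SEPTIN9, ZFYVE19, CHMP1B and MITD1 overlap those of other genes, so their values are less certain.

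**Figure D4:**
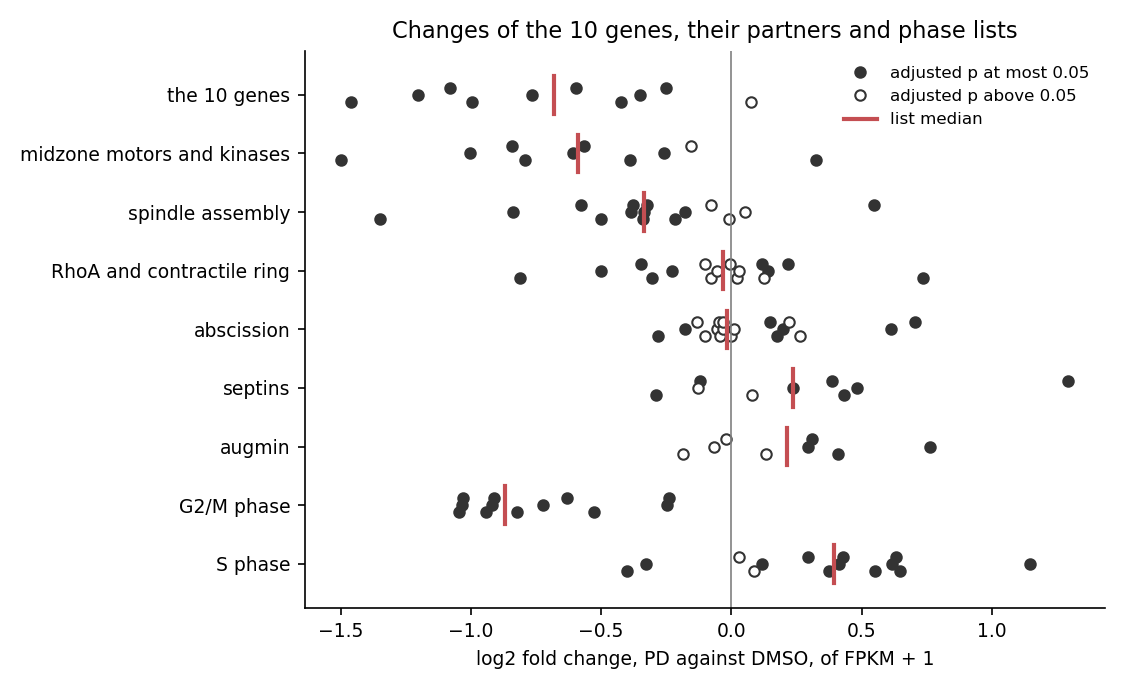
log2 fold change of FPKM + 1, PD against DMSO, for the 10 genes and each tested gene of the partner and phase lists, with filled points up to an adjusted p of 0.05, open points above it and a red bar at the list median. The medians run from -0.87 in the G2/M list to 0.39 in the S phase list, and that of the 10 genes is -0.68.

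Ratios to binding partners are given as a description. For 7 pairs of a member and a protein it is known to bind, chosen after the values had been seen, the log2 ratio of FPKM + 1 was computed within each library. All 7 ratios were apart between the groups, as were 63.6% of the ratios of all pairs of tested genes, so separation alone was common. Each had an exact permutation p of 0.1, the smallest possible, which stayed at 0.1 after Benjamini-Hochberg adjustment over the 7. ECT2 to RACGAP1 turned from 0.40 ± 0.039 in DMSO to -0.45 ± 0.101 in PD (SD, n = 3 each), so that ECT2 was above its recruiter in every DMSO dish and below it in every PD dish. Within centralspindlin, RACGAP1 to KIF23 rose from 0.72 ± 0.096 to 1.21 ± 0.019, since KIF23 fell by 0.84 on the log2 scale.
PRC1 to its motor KIF4A fell from 1.21 ± 0.064 to 0.60 ± 0.082, and KIF4A itself had a log2 fold change of -0.16 (limma, adjusted p = 0.054). TPX2 to AURKA rose by 0.75, as did CIT to KIF14, the partner having fallen more in both. The largest shift of the 7, -1.03, was that of ANLN to RHOA, with RHOA at 263 ± 4.87 and 253 ± 6.72 FPKM (SD, n = 3 each; limma, adjusted p = 0.15). The smallest shift, 0.11, was that of CEP55 to PDCD6IP (ALIX), the abscission factor it recruits, whose own log2 fold change was -0.03 (limma, adjusted p = 0.58).

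**Figure D5:**
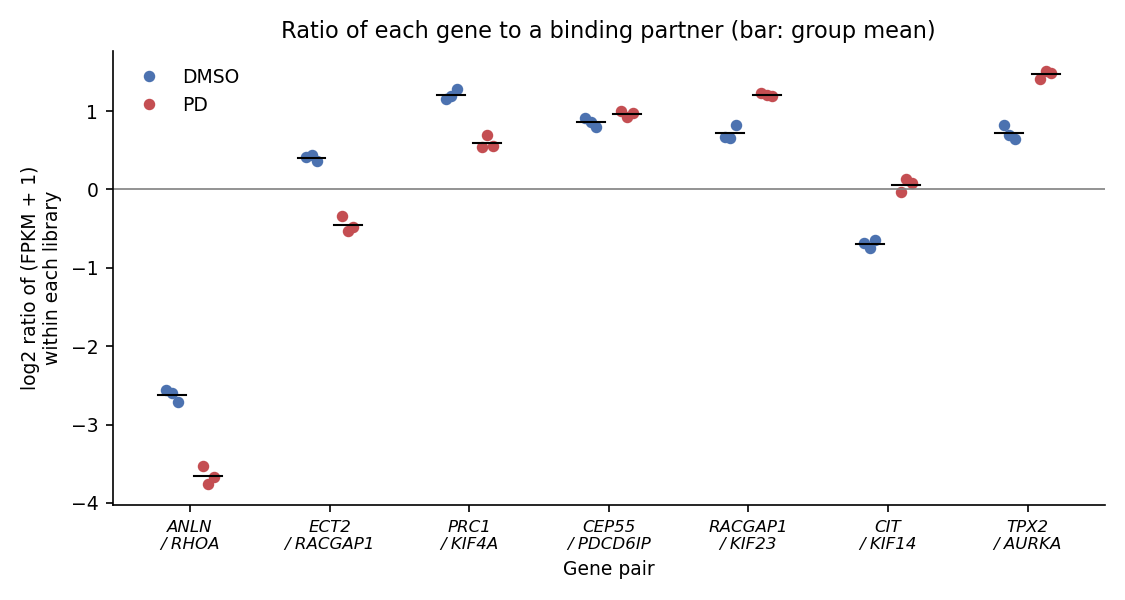
log2 ratio of FPKM + 1 of each gene to a binding partner within each DMSO (blue) and PD (red) library, with black bars at the group means. ECT2 to RACGAP1 crosses 0 between the groups, ANLN to RHOA moves by -1.03, and CEP55 to PDCD6IP moves by 0.11.

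Genes of cell cycle phases moved beside these changes. All 12 genes of the G2/M list were lower in PD by limma (median log2 fold change -0.87), and their summed level went from 581 to 586 FPKM in DMSO to 331 to 350 FPKM in PD. TOP2A, the topoisomerase that untangles sister chromatids, fell from 102 ± 2.12 to 48.8 ± 4.62 FPKM (SD, n = 3 each), and CENPF, a kinetochore protein of G2, fell by 1.03 on the log2 scale. Of 14 S phase genes, 10 were higher and 2 lower, with a median of 0.39 and summed levels of 610 to 631 FPKM in DMSO and 715 to 718 FPKM in PD. Beside these counts, 26.2% of all tested genes were lower and 31.9% higher. The higher count in the S phase list was 9 or 10 in every alternative processing tried. CDC6, which loads the replicative helicase, rose by 1.15 and CCNE2 by 0.65, while MCM2 (-0.40) and MCM5 (-0.33), subunits of that helicase, fell. Exons of MCM2 and CCNE2 overlap genes on the opposite strand. The part of phase in the falls of the 10 genes was not tested.

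Genes outside the lists whose profile over the 6 libraries was most like the mean standardised profile of the 10 were SNTB1, EIF1AX, PPFIBP1, SPIN1 and YWHAZ, with Pearson correlations from 0.9986 to 0.9999. These describe 6 libraries in 2 groups, and 1538 of 14279 genes (10.8%) reached 0.95, so such likeness was common. SNTB1, which encodes a syntrophin, went from 2.78 ± 0.202 to 1.67 ± 0.104 FPKM (SD, n = 3 each), and EIF1AX, a translation initiation factor, from 73.5 ± 3.60 to 51.6 ± 2.05 FPKM. CEP55 had a correlation of -0.26 with the mean profile, and the other 9 genes had correlations from 0.974 to 0.997. Each gene is itself part of that mean and the 9 were all lower in PD, so their high values are largely built in.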

How the data were processed

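RNA from 3 PD and 3 DMSO dishes was sequenced, and groups and replicate numbers were taken from the sample titles. The authors selected poly(A) RNA, aligned reads with HISAT2 (build hg38), used HTSeq 0.6.0 for counting, as the submitters' processing notes list, and deposited FPKM, with 1 column per library and none left unassigned. The protocol describes no step that marks strand, so a gene and its antisense partner cannot be told apart. Symbols, positions and exon overlaps came from GENCODE release 44 on the same build, and 28161 of 28563 identifiers matched.

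For genes averaging 0.5 FPKM or more, log2(FPKM + 1) was tested with limma 3.58.1 (R 4.3.3), using a prior variance that follows intensity, no covariate and Benjamini-Hochberg adjustment. This scale understates changes at low FPKM. A DEG was a gene changed 2-fold or more with an adjusted p up to 0.05. Whole fragments were worked back as FPKM times gene length times library total, within 0.001 of a whole number, by the GENCODE 44 length for 12879 genes and by a common step in the values for 15684. Exact permutation tests were two-sided (scipy 1.17.1). The fits were tested on simulated fragments. Alternatives were a pseudocount of 0.1, no filter, the replicate number as a block, leaving out each library, scaling by median-of-ratios or upper quartile factors, and voom on genes reaching 10 fragments in 3 libraries.

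The 10 genes and all lists were chosen with earlier results of these data known. The text names the 10, the 2 largest falls and rises past the threshold in each partner and phase list, and the 5 genes of most similar profile. Other genes, among them the binding partners and the chromosomal passenger complex, were picked with their values in view. RACGAP1 and TPX2 had no promoter window. Results for some listed genes are not reported here.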

Additional observations from a re-analysis of the deposited data

How the results depend on the processing

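The 9 genes that fell stayed lower by the threshold in all 12 alternatives, and the largest adjusted p among them was 0.012, for CIT. The number at least 2-fold lower was 3 or 4 throughout. HMMR was the gene that joined, with the pseudocount of 0.1, both scalings and voom, and without DMSO replicate 3, PD replicate 1 or PD replicate 2. The median log2 fold change of the 10 genes was -0.706 with median-of-ratios scaling, -0.765 with upper quartile scaling and -0.697 with voom, and it ran from -0.67 to -0.69 when single libraries were left out. The change of CEP55 turned to -0.005 (adjusted p = 0.94) with upper quartile scaling. Leaving out single libraries gave it values from 0.011 to 0.127. Over all tested genes, 520 DEGs became 1248 with a pseudocount of 0.1 and 1734 with voom. Leaving out single libraries gave 511 to 561. The cause of these shifts was not tested. Of the partner genes, 26 to 38 were lower and 14 to 20 higher across the alternatives. With the replicate number as a block, 518 DEGs were called and no call among the 10 genes changed. Same-numbered libraries deviated together with correlations of -0.027, -0.005 and 0.09 across genes, and not every library correlated best with its own number. These values show no clear pairing of dishes by number, but with 3 libraries per group they cannot exclude it. At 208 to 591 fragments, HMMR was the least precise of the 10.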

Other observations

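Several genes share exon bases with members of the group. PRC1-AS1 lies opposite PRC1 over 1892 exon bases and had 0.290, 0.597 and 0.487 FPKM in DMSO and 0.185, 0.0634 and 0.102 FPKM in PD, so it was lower in every PD library, but its mean was under the 0.5 FPKM minimum of the test. OIP5, a centromere gene, lies opposite NUSAP1 over 352 exon bases and had 29.1 ± 1.05 FPKM in DMSO and 32.2 ± 0.0187 FPKM in PD (SD, n = 3), a rise of 0.14 on the log2 scale (limma, adjusted p = 0.011), while NUSAP1 fell. OIP5-AS1, a lncRNA that shares 195 exon bases with NUSAP1, rose by 0.26 on the log2 scale (limma, adjusted p = 0.012). MATCAP2 lies opposite ANLN over 78 exon bases and had a log2 fold change of -0.17 (limma, adjusted p = 0.068). HMMR-AS1, opposite HMMR, was listed at 0 in all 3 PD libraries and in 1 of the 3 DMSO libraries, with at most 0.122 FPKM.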
